A study of Mus musculus with 9 samples.

Results

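The families of axon guidance molecules other than the Eph genes were followed through the chordoneural hinge (CNH), the tailbud mesoderm (TBM) and the presomitic mesoderm (PSM) of the mouse tail. The set took every probe whose annotated symbol begins with Sema, Plxn, Slit (without Slitrk), Robo or Unc5, or is Nrp1, Nrp2, Ntn1, Ntn3, Ntn4, Ntng1, Ntng2, Dcc or Neo1. This gave 137 of the 45281 probes on the array, for 48 of the 19057 genes with a named probe. The annotation paired no probe with Ntn1 or Robo3, so these are not analysed here. Unc50, a Golgi protein, and Unc5cl were taken in by the letters of their symbols alone.

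These families work as ligands and receptors. Semaphorins signal through plexins, the secreted class 3 members mostly with a neuropilin as the part that binds the ligand, and slits signal through roundabouts. Netrins attract through Dcc and neogenin and repel through Unc5 proteins. All were first known for steering growth cones, and many also act outside the nervous system, where plexin D1, Robo4 and Unc5b are best known from the endothelium of blood vessels and semaphorins and slits from the movement of neural crest and mesodermal cells.

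The regions came from wild-type embryos at E10.5, whose mothers were of the CD1 and C57Bl/6J strains, and the sources do not say which strain gave which sample. The CNH holds axial progenitors, the TBM adjoins it, and somites are cut off from the PSM. Many pieces of each region were pooled before total RNA was extracted, amplified as biotin-labelled cRNA and put on Illumina Ref6v2 BeadArrays, 3 arrays for each of CNH, TBM and PSM. According to the methods the 3 are biological and technical replicates together, without a statement of which is technical, so the p-values treat as independent some arrays that may share an RNA and may be too small. In pools of whole tissue, fewer cells of a type and less RNA per cell cannot be told apart.

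Depth and signal differed little between regions. Median signals lay between 76.8 and 80.4 in replicates 1 and 2, and between 63.0 and 67.1 in replicate 3, and 30.1% to 32.7% of probes had a detection p below 0.01, the usual limit against the negative control beads. Replicate 3 stood apart from replicates 1 and 2 in every region, so the replicate number entered the model as a block. All 8 axial progenitor genes tested were higher in CNH than in PSM and 7 of the 8 were higher in TBM than in PSM. Most of them, such as Fgf8 and Greb1, were named by the authors as enriched in CNH on these same arrays. They are therefore no independent check of the labels. Of 7 presomitic mesoderm and somite genes tested, 6 were lower in CNH and 5 in TBM than in PSM. Among these, Foxc2, Mesp1 and Ripply2 were detected on all 3 arrays only in the PSM, so this direction was built into their selection. Neural tube, gut endoderm and erythroid lists gave 1 of 2, 1 of 3 and 2 of 6 tested genes higher in CNH than in PSM, and 1 of the gut genes lower. Between TBM and PSM they gave 0, 1 and 1 higher and 2 gut genes lower. The gut gene higher in both was Foxa3, detected on 3, 3 and 0 arrays of CNH, TBM and PSM, so this direction was built into its selection. The gut gene lower in CNH, Cdh1, was detected on 1, 3 and 3 arrays and passed only through TBM and PSM. Between CNH and TBM 1 neural gene, Sox2, was higher, and it was detected on all 3 arrays only in the CNH. Of all tested probes, 6.66% were higher and 4.54% lower in CNH than in PSM, and 5.37% and 4.05% in TBM than in PSM. In CNH relative to TBM the shares were 0.780% and 0.225%.

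The upstream sequences of 5 genes are given here, those called relative to PSM in both CNH and TBM as described below. They are the 250 bases before the annotated start, from RefSeq on GRCm38.p6, written 5′ to 3′ in the direction of transcription. They lie at chr5:47982905-47983154 on the plus strand (Slit2), chr6:115995006-115995255 on the minus strand (Plxnd1), chr9:37401722-37401971 on the plus strand (Robo4), chr5:17574566-17574815 on the plus strand (Sema3c) and chr15:32244563-32244812 on the plus strand (Sema5a). Capitals mark matches to a TATA box (TATAAA) or a GC box (GGGCGG) on either strand.
Slit2: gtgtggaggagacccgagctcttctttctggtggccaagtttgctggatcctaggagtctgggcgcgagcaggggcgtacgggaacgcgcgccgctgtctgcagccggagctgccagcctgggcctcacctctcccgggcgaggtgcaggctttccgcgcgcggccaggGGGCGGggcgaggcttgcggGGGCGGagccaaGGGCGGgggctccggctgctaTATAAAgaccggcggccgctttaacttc
Plxnd1: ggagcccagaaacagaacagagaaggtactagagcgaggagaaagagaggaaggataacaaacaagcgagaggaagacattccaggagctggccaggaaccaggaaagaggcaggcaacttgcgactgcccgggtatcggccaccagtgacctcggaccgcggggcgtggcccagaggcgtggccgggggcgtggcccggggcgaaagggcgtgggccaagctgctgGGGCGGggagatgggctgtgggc
Robo4: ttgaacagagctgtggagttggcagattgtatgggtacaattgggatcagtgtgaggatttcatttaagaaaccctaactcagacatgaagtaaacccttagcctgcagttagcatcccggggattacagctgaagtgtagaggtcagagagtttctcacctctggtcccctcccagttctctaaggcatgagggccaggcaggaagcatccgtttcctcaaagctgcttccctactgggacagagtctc
Sema3c: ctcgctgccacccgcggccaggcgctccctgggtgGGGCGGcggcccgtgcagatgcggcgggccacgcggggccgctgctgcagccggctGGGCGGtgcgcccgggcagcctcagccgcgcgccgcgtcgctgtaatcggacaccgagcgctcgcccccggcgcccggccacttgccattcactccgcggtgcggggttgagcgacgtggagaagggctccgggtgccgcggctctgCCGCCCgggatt
Sema5a: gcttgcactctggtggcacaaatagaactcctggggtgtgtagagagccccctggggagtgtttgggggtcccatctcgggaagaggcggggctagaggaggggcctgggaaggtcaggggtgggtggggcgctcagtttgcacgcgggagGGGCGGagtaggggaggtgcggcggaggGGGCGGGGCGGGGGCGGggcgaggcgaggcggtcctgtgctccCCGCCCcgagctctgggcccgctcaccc

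The Slit2 window held a TATA box 28 bases before the start and 3 GC boxes. The windows of Plxnd1, Sema3c and Sema5a held 1, 3 and 5 GC boxes and no TATA box, those of Sema5a partly overlapping each other, and the Robo4 window held neither. Over all 32851 windows of this length in the table, 12.4% held a TATA box and 32.7% a GC box. None of the 5 windows held the longer ETS motif CCGGAA (12% of all windows), the CDX motif TTTATNG (9.81%), the TCF/LEF motif CTTTGNT (16%) or the T-box motif TCACACC (3.33%). The shorter ETS core GGAA was not counted, and it occurs in the windows of Slit2, Plxnd1, Robo4 and Sema5a. Windows were rich in G and C for Sema3c (78.4%), Sema5a (72.0%), Slit2 (69.6%) and Plxnd1 (64.8%), against 49.6% for Robo4 and a median of 52.4% over all windows. A match is a description of letters and not of a bound site, and of the 48 genes 40 had an entry in the table.

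Most guidance probes gave no signal above background in the tail. Of the 137 probes, 86 were detected on none of the 9 arrays and 22 on some arrays without reaching all 3 of a region. The other 29, for 19 genes, passed this limit of 3 arrays in 1 or more regions and were tested. No probe was detected for 19 genes, among them the netrin receptors Dcc, Unc5a and Unc5d, the plexins Plxna1, Plxna3, Plxna4, Plxnb3 and Plxnc1, the ligands Slit1, Ntn4, Ntng2, Sema3d, Sema3g, Sema4c, Sema6b and Sema6c, and the receptor Robo2. Signals at background do not show that these genes are absent. Among genes seen on some arrays, Sema6d was detected on 2 arrays of each region, and Nrp2, Plxnb1 and Sema7a on 1 array of each.

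By role, 15 of 78 ligand probes (11 genes) and 14 of 59 receptor probes (8 genes) were tested. Semaphorins gave 10 tested probes of 55, slits 4 of 11, netrins 1 of 4 and netrin-Gs 0 of 8. Plexins gave 5 of 15, neuropilins 3 of 9, roundabouts 2 of 15, Dcc and neogenin 3 of 8, and Unc5 genes 1 of 12. The number of guidance probes detected per array was 32 to 39 in CNH, 30 to 35 in TBM and 30 to 33 in PSM.

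**Figure D1:**
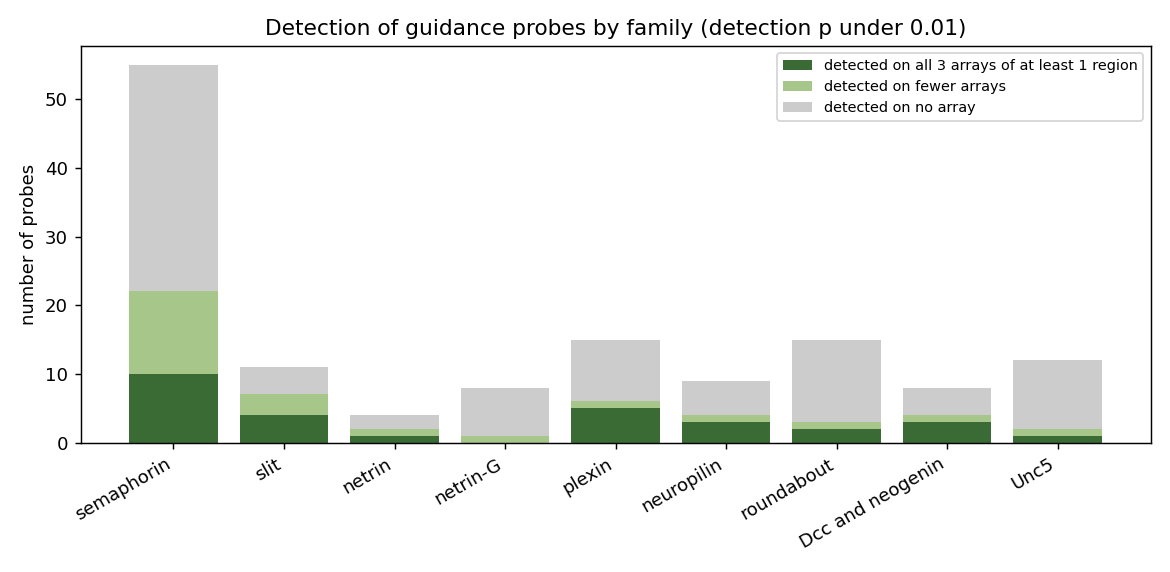
Number of probes (vertical axis) in each guidance family (horizontal axis), split by detection into tested probes, probes seen on too few arrays, and probes seen on none. Semaphorins had the most probes, 55, of which 10 were tested, and netrin-Gs had 8 probes with 0 tested.

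Guidance genes were called in CNH and in TBM relative to PSM, and none was called between CNH and TBM. A probe was called at an adjusted p under 0.05 and a fold of at least 1.5 in limma. Between CNH and PSM 9 of 29 guidance probes were called, 5 higher and 4 lower, where 11.2% of all 12437 tested probes were called (6.66% higher and 4.54% lower). Between TBM and PSM 10 of 29 were called, 6 higher and 4 lower, beside 9.42% of all probes (5.37% higher and 4.05% lower). These comparisons share the PSM arrays. Of CNH against TBM, limma called 0 of 29, beside 1.01% of all probes (0.780% higher and 0.225% lower), and 0 with no limit on the fold (1.05% of all probes). There, 7 of the 29 had an unadjusted p under 0.05 in limma, beside 12.5% of all tested probes, and the lowest adjusted p was 0.0618.

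The higher calls fell on Slit2, Plxnd1 and Robo4 in CNH and on these with Unc5b in TBM, and no semaphorin probe was called higher. The lower calls fell on Sema3c, Sema5a and Sema6a in CNH and on Sema3c, Sema4g and Sema5a in TBM, and no receptor probe was called lower. The 29 probes had a median log2 difference of 0.08 in CNH relative to PSM, beside -0.04 for all tested probes, and of 0.04 in TBM relative to PSM, beside -0.02. For 11 of the 29 the arrays of CNH did not overlap those of PSM (13.5% of all tested probes), for 10 those of TBM did not overlap PSM (12.3%), and for 5 those of CNH did not overlap TBM (4.81%). Of the 29, 23 were detected on all 9 arrays, and with only such probes tested, 7 were called in CNH and 8 in TBM relative to PSM.

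**Figure D2:**
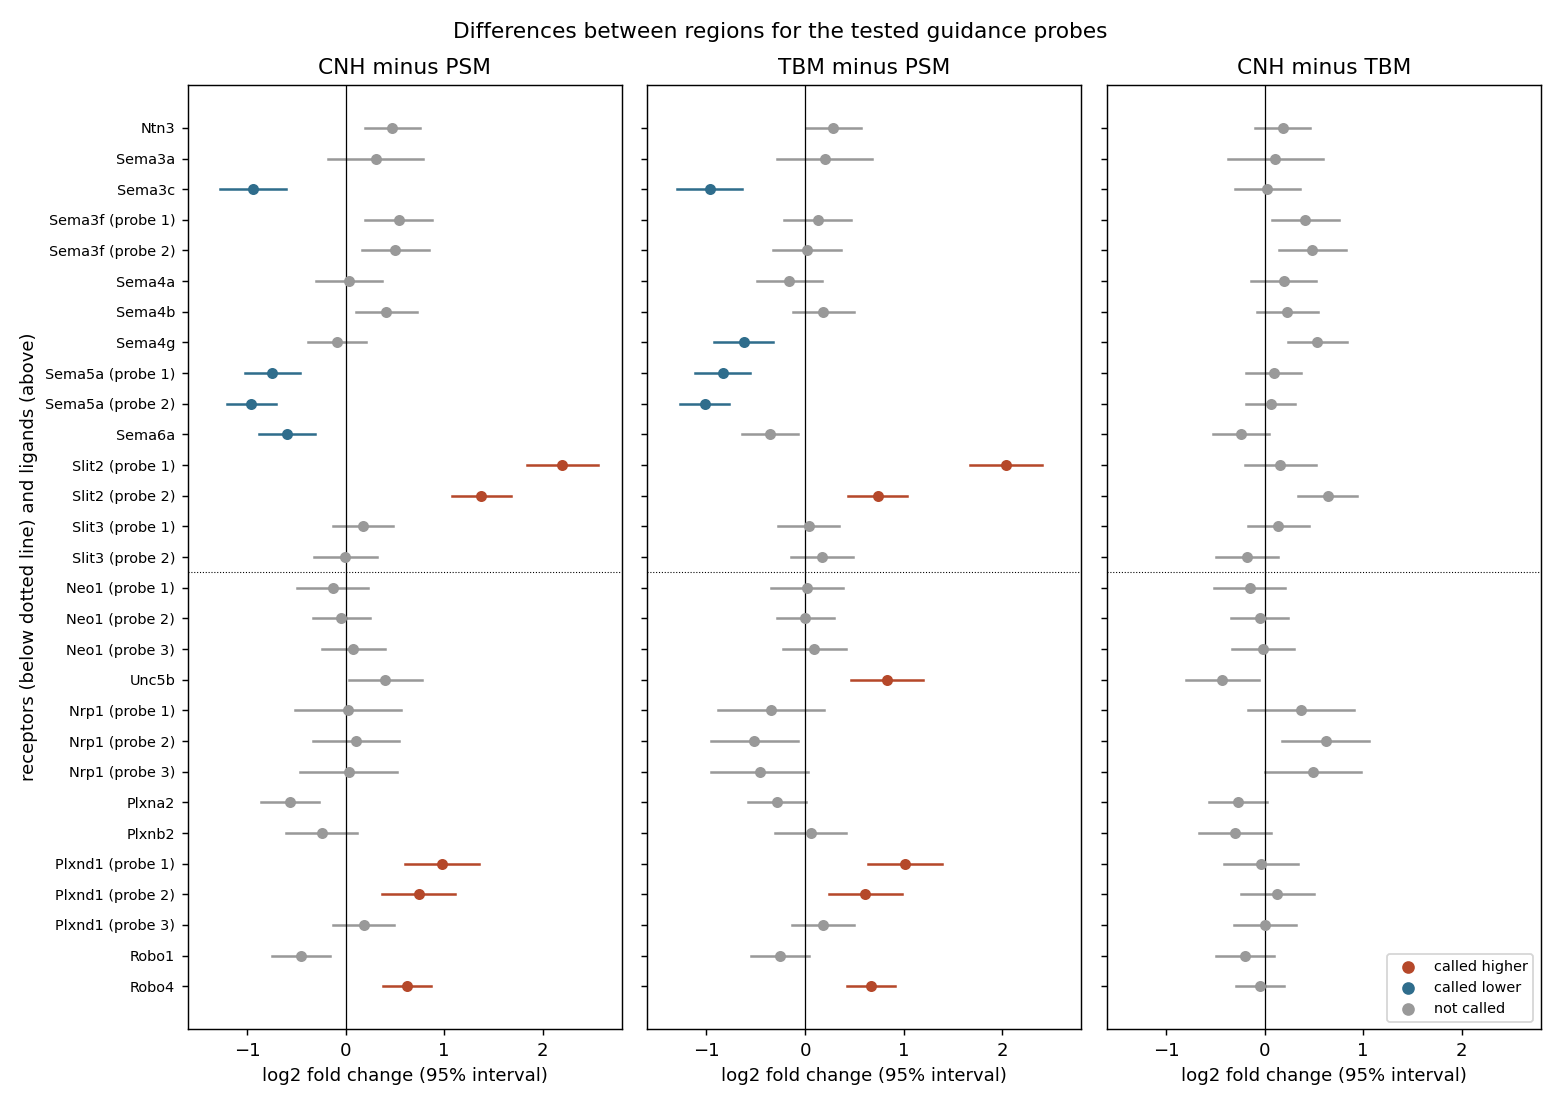
Fitted log2 differences (horizontal axes, points) with 95% intervals (lines) for the 29 tested probes, ligands above and receptors below the dotted line, for CNH minus PSM, TBM minus PSM and CNH minus TBM. Slit2 reached 2.20 and 2.04 against PSM, the lower calls against PSM were all semaphorins, and no probe was called between CNH and TBM.

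Without the replicate block, 3 of 29 probes were called in CNH and 2 in TBM relative to PSM, against a background that also fell, to 351 and 268 of the 12437 probes. With the authors' deposited values in place of the recomputed ones, 1 was called in each, and the signs of all 9 and of all 10 probes did not change in either setting.

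Among the ligands, Slit2, the secreted repellent that roundabouts bind, had the largest fitted difference of the tested guidance probes. Its main probe (ILMN_1253797) had a normalized log2 signal of 8.70, 8.67 and 9.12 in CNH, 8.54, 8.35 and 9.12 in TBM and 6.11, 6.35 and 7.42 in PSM. Every CNH and TBM array lay above every PSM array, and replicate 3 was the highest array of each region. The fitted difference was 2.20 ± 0.16 between CNH and PSM (SE, 4.59-fold, adjusted p = 1.04e-05 by limma) and 2.04 ± 0.16 between TBM and PSM (4.11-fold, adjusted p = 2.20e-05). It was called in all 19 alternative settings in both comparisons, with differences of 0.94 to 2.45 and 0.87 to 2.25. CNH exceeded TBM by 0.16, with an interval of -0.20 to 0.52 (adjusted p = 0.746 by limma).

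A second Slit2 probe (ILMN_1258994) was detected on all CNH and TBM arrays and on no PSM array. Its log2 signals were 6.05, 6.01 and 5.74 in CNH, 5.10, 5.50 and 5.27 in TBM and 4.53, 4.49 and 4.64 in PSM. The regions did not overlap, with CNH highest and PSM lowest. CNH was at least 2.00-fold above PSM (adjusted p = 6.57e-05 by limma) and TBM at least 1.29-fold (adjusted p = 0.00423 by limma). These bounds set the dim arrays at the lowest detected signal. As the probe passed the detection limit only through the regions where it was bright, a difference of this direction was built into its selection.

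This probe differed by 0.64 ± 0.13 (SE) between CNH and TBM, with an interval of 0.34 to 0.94, and its adjusted p of 0.0618 by limma was the lowest of the guidance set. It passed only without PSM replicate 3 (0.64, adjusted p = 0.0476 by limma), an array that is not in that difference but enters the shared spread. Of the 5 other Slit2 probes, ILMN_2572200 was detected on 2 CNH arrays, ILMN_1232381 on 1 CNH and 2 TBM arrays and ILMN_1242129 on 1 CNH and 1 PSM array. ILMN_1235829 and ILMN_1245807 were detected on no array.

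**Figure D3:**
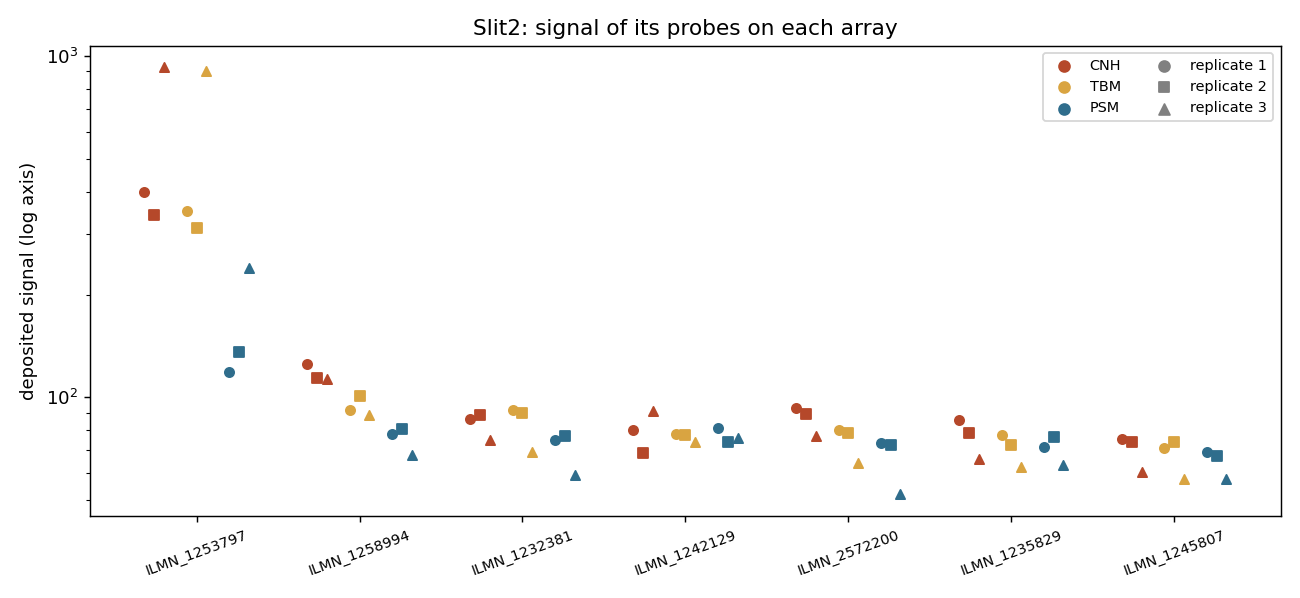
Deposited signal (log axis) of the 7 Slit2 probes on each array, with colours for CNH, TBM and PSM and marker shapes for replicates. The first 2 probes separate CNH and TBM from PSM within each replicate number, and the other 5 stay close to background.

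Notochord and floor plate, where slits are well known to be made, had markers that were higher in the CNH together with Slit2. Of the 8 genes of that list 2 were tested, Chrd and Shh. Both were called higher in CNH than in PSM, at 1.95 and 2.58, beside 6.66% of all tested probes. Both were also called higher in CNH than in TBM, at 1.70 and 2.00, beside 0.780% of all tested probes. Neither was called between TBM and PSM, at 0.25 and 0.58 (adjusted p = 0.322 and 0.218 by limma). The summed signal of the list was 292 to 751 in CNH, 194 to 240 in TBM and 180 to 210 in PSM, and Foxa2 and Foxd4 were detected on no array. In CNH, TBM and PSM, Nog was detected on 2, 2 and 0 arrays and Foxa1 on 2, 1 and 0. Noto was detected on 2, 0 and 0 arrays and Foxj1 on 1, 1 and 1. Chrd was lower in TBM than in PSM in replicate 1 (5.48 against 5.64) and higher in replicates 2 and 3. It was detected on 3, 3 and 2 arrays of CNH, TBM and PSM, so it passed the detection limit only through CNH and TBM. Shh was higher in TBM than in PSM within each replicate number, in replicate 3 at 4.41 against 4.36. As Shh was detected on 3, 2 and 0 arrays, it passed the detection limit only through the CNH. Its higher call there was thus built into its selection. Its differences from PSM are fitted values and not bounds. The part of these cells in the Slit2 values of CNH and TBM was not tested.

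Slit3 was not called. Its probes differed by 0.18 and -0.00 between CNH and PSM and by 0.04 and 0.17 between TBM and PSM, with intervals that reached from -0.32 to 0.49 at the widest.

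Of the 10 tested semaphorin probes, 4 were called lower than in PSM in CNH and 4 in TBM, beside 4.54% and 4.05% of all tested probes. In CNH, 5 of the 10 had positive differences. Sema5a, a transmembrane semaphorin with thrombospondin repeats, had log2 signals of 7.63, 7.75 and 7.90 in CNH, 7.47, 7.63 and 7.99 in TBM and 8.68, 8.63 and 8.85 in PSM at its brighter probe (ILMN_2604226). All PSM arrays lay above all others. The probe fell by 0.96 ± 0.11 in CNH (1.94-fold, adjusted p = 0.000200 by limma) and by 1.02 ± 0.11 in TBM (2.03-fold, adjusted p = 0.000170 by limma) relative to PSM (SE). It kept its call in 18 of 19 alternatives in both comparisons and missed the fold limit, not the p, with the deposited values (-0.50 and -0.52).

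The other tested Sema5a probe (ILMN_2604224) went the same way. It had 6.87, 6.60 and 7.19 in CNH, 6.56, 6.64 and 7.18 in TBM and 7.30, 7.42 and 8.17 in PSM, again without overlap. The differences from PSM were -0.74 in CNH (adjusted p = 0.00218 by limma) and -0.84 in TBM (adjusted p = 0.00123 by limma). The Sema5a probes of CNH and TBM differed by 0.06 (interval -0.19 to 0.31) and 0.09 (-0.19 to 0.37).

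Sema3c, a secreted class 3 semaphorin that binds neuropilins, had a probe detected on no array (ILMN_2673323). Its other probe (ILMN_1238568) was detected on all 3 PSM arrays and on none of CNH or TBM. Its log2 signals were 4.37, 4.58 and 4.57 in CNH, 4.51, 4.63 and 4.28 in TBM and 5.73, 5.53 and 5.08 in PSM. The PSM arrays stood above the rest, which lay at background. CNH was at least 1.49-fold lower than PSM (adjusted p = 0.00152 by limma) and TBM at least 1.45-fold lower (adjusted p = 0.00147 by limma). The probe entered the test only through the PSM, where it was bright. Its fitted differences in CNH and TBM were -0.94 and -0.97, against -0.39 and -0.42 with no background correction and -0.14 and -0.15 with the deposited values, and the call ended in each.

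Sema6a and Sema4g, both membrane semaphorins, were called in 1 comparison each. Sema6a had 7.04, 7.12 and 5.78 in CNH, 7.37, 7.54 and 5.75 in TBM and 7.88, 7.76 and 6.10 in PSM. Replicate 3 was the lowest array of each region, so the regions overlapped, while PSM was the highest within each replicate number. These values come from ILMN_1214701, and the other Sema6a probes were detected on no array or on 1 PSM array. Sema6a fell by 0.60 ± 0.13 in CNH relative to PSM (SE, 1.51-fold, adjusted p = 0.00878 by limma) and its difference in TBM was -0.36 (adjusted p = 0.102). The CNH call was lost without CNH replicate 1 (-0.51, adjusted p = 0.0583), CNH replicate 2 (-0.54, adjusted p = 0.0521) or PSM replicate 1 (-0.50, adjusted p = 0.0560) in limma. That call was also lost with replicates 1 and 2 averaged.

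Sema4g had 5.95, 5.30 and 6.67 in CNH, 5.33, 4.98 and 6.01 in TBM and 5.71, 5.69 and 6.77 in PSM. The TBM was the lowest region within each replicate number, but its arrays overlapped those of both other regions. It fell by 0.62 ± 0.13 in TBM relative to PSM (SE, 1.54-fold, adjusted p = 0.0105 by limma), and the CNH difference from PSM was -0.09. CNH stood 0.54 above TBM, with an adjusted p of 0.110 by limma. These values come from ILMN_2718314, and the other Sema4g probe was detected on no array. The TBM call was lost without TBM replicate 3 (-0.55), PSM replicate 2 (-0.52) or PSM replicate 3 (-0.58), since these differences were below the fold limit, and without replicate 3 of every region (-0.55, adjusted p = 0.0750 by limma). That call was also lost with replicates 2 and 3 averaged.

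Surface ectoderm, which covers the tail, stood apart in the same direction as the semaphorins called lower. All 3 genes of that list that were tested, Krt14, Trp63 and Wnt6, were called lower in both CNH and TBM than in PSM. Of all tested probes, 4.54% and 4.05% were. Trp63 was detected on all 3 arrays only in the PSM, so this direction was built into its selection. The summed signal of the 8 genes was 214 to 315 in CNH, 228 to 372 in TBM and 794 to 916 in PSM, with Perp detected on no array. The part of ectoderm cells in the semaphorin values was not tested.

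**Figure D4:**
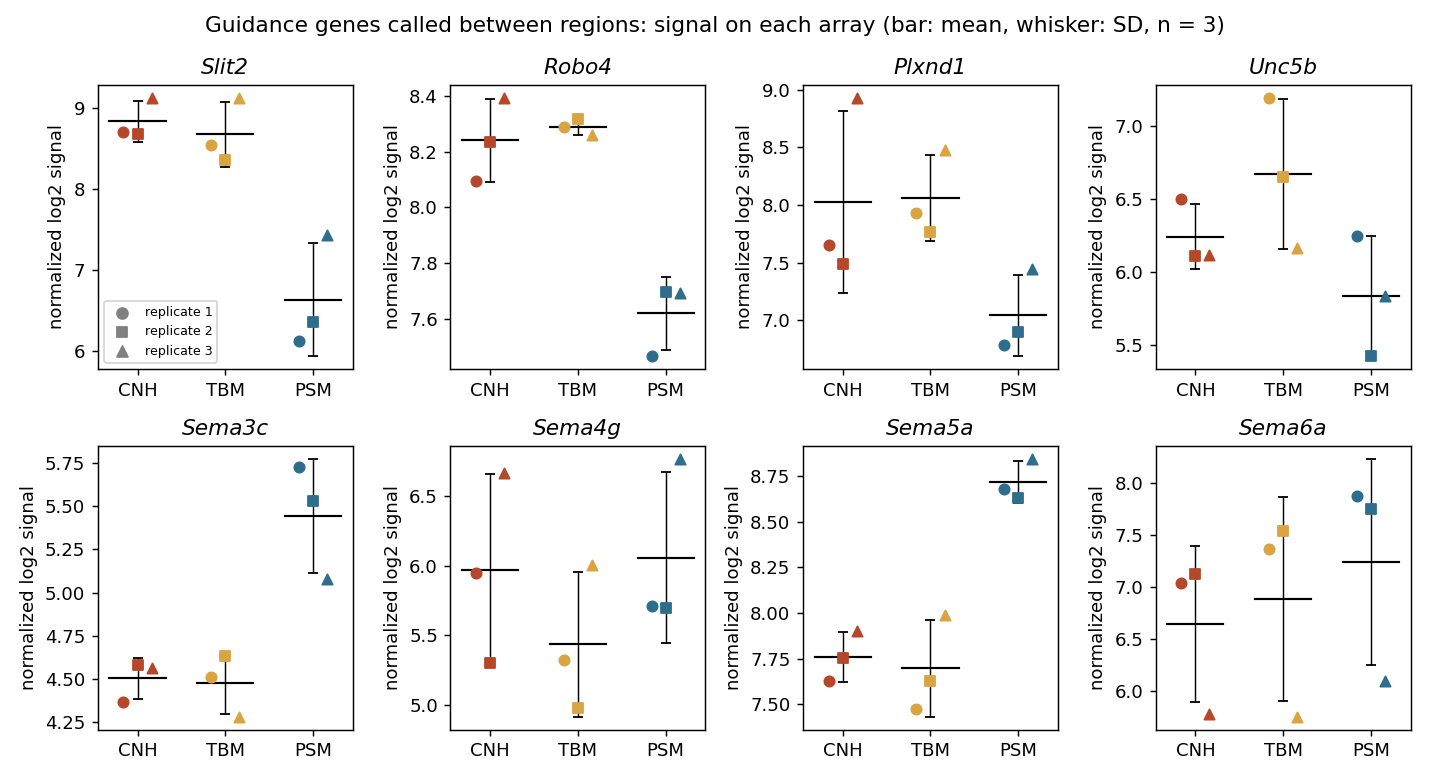
Normalized log2 signal (vertical axes) of the 8 called genes on each array, at the brightest probe of each, by region (horizontal axes) and replicate number (marker shapes), with mean and SD (n = 3). Slit2, Robo4 and Plxnd1 are higher on every CNH and TBM array than on any PSM array, Sema3c and Sema5a are lower, and Unc5b, Sema4g and Sema6a overlap.

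Sema3f, a secreted ligand of neuropilin 2, had 8.78, 8.70 and 8.92 in CNH, 8.48, 8.41 and 8.27 in TBM and 8.41, 8.49 and 7.87 in PSM at its brighter probe. The CNH arrays lay above all others, and those of TBM and PSM overlapped. The difference between CNH and PSM was 0.54 (adjusted p = 0.0336 by limma), and 0.51 at the second probe (adjusted p = 0.0464 by limma), both under the fold limit. Relative to TBM the CNH values were higher by 0.41 and 0.49 (adjusted p = 0.289 and 0.213 by limma), and between TBM and PSM by 0.13 and 0.02. The first probe reached the fold limit without CNH replicate 2 (0.65) or PSM replicate 2 (0.68), and the second without PSM replicate 1 (0.69).

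Sema4b, a membrane semaphorin, had 8.53, 8.71 and 9.61 in CNH, 8.24, 8.16 and 9.74 in TBM and 7.96, 8.14 and 9.51 in PSM. The regions overlapped, and the difference between CNH and PSM was 0.41 (adjusted p = 0.0671 by limma). Sema3a and Sema4a differed from PSM by 0.31 and 0.03 in CNH and by 0.20 and -0.16 in TBM, with no call. The netrin Ntn3 had 7.59, 7.52 and 8.08 in CNH, 7.39, 7.32 and 7.92 in TBM and 7.12, 7.29 and 7.36 in PSM. Its CNH arrays lay above its PSM arrays, at a difference of 0.47 (adjusted p = 0.0252 by limma) under the fold limit, which it passed without PSM replicate 2 (0.60).

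Among the receptors, plexin D1 and Robo4 were higher in both CNH and TBM than in PSM. Plxnd1, known as the endothelial receptor of Sema3e, had log2 signals of 7.65, 7.49 and 8.93 in CNH, 7.93, 7.76 and 8.48 in TBM and 6.79, 6.90 and 7.44 in PSM at its brightest probe (ILMN_1214608). The CNH and TBM arrays all lay above those of the PSM, with replicate 3 highest in each region. The difference from PSM was 0.98 ± 0.17 in CNH (SE, 1.97-fold, adjusted p = 0.00239 by limma) and 1.01 ± 0.17 in TBM (2.02-fold, adjusted p = 0.00225 by limma). Without the replicate block the same differences had an adjusted p of 0.489 and 0.539 in limma.

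The probes of Plxnd1 differed in call. ILMN_2550095 had 5.96, 6.22 and 7.64 in CNH, 6.23, 5.99 and 7.21 in TBM and 5.42, 5.74 and 6.43 in PSM, with overlap between regions, and was called at 0.74 in CNH and 0.61 in TBM (adjusted p = 0.0111 and 0.0342 by limma). The CNH call was lost without CNH replicate 3 (0.55) or PSM replicate 3 (0.58), and the TBM call without TBM replicate 1 (0.46), TBM replicate 3 (0.64), PSM replicate 1 (0.62) or PSM replicate 3 (0.45). Without replicate 3 of every region both were lost (0.51 and 0.53). The TBM call was also lost with replicates 1 and 2 averaged and with replicates 1 and 3 averaged. ILMN_3162354, close to background at 4.53 to 5.15 on all arrays, differed by 0.18 in both and was not called. Sema3e, the ligand, was detected on 1 CNH array only.

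Robo4, the roundabout of endothelial cells, had 8.09, 8.23 and 8.39 in CNH, 8.29, 8.32 and 8.26 in TBM and 7.47, 7.70 and 7.69 in PSM. The PSM arrays lay below all others, and CNH and TBM overlapped. The difference from PSM was 0.62 ± 0.11 in CNH (SE, 1.54-fold, adjusted p = 0.00302 by limma) and 0.67 ± 0.11 in TBM (1.59-fold, adjusted p = 0.00223 by limma). Between CNH and TBM it was -0.05, with an interval of -0.29 to 0.20. The CNH difference dropped below the fold limit without CNH replicate 3 (0.56), PSM replicate 1 (0.58) or replicate 3 of every region (0.58), on uncorrected signals (0.51) and at an offset of 50 (0.54). The TBM difference did so on uncorrected signals (0.55). Both calls were also lost without the replicate block and with the deposited values. These values come from ILMN_2942011, and the other Robo4 probes were detected on no array.

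Endothelial markers were higher in the same regions as Plxnd1 and Robo4. Of the 12 genes of that list, all with a probe, 9 were tested. Called higher than in PSM were 6 in CNH and 4 in TBM, beside 6.66% and 5.37% of all tested probes. Between CNH and TBM 0 were called, beside 1.01% of all tested probes. The median differences of the 9 were 0.78 and 0.53. The largest of the list in both was that of Etv2, a factor that specifies endothelium, at 1.70 and 1.35. Emcn, a surface protein of endothelium, differed by 1.08 and 0.60, and Cldn5, a claudin of endothelial tight junctions, by 0.86 and 0.71. Cdh5, the cadherin of endothelial junctions, differed by 0.29 and 0.30 and was not called. The summed signal of the list was 3171 to 3621 in CNH, 2806 to 3130 in TBM and 2080 to 2206 in PSM, and Tie1 was detected on no array. The part of endothelial cells in the values of Plxnd1, Robo4 and Unc5b was not tested.

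**Figure D5:**
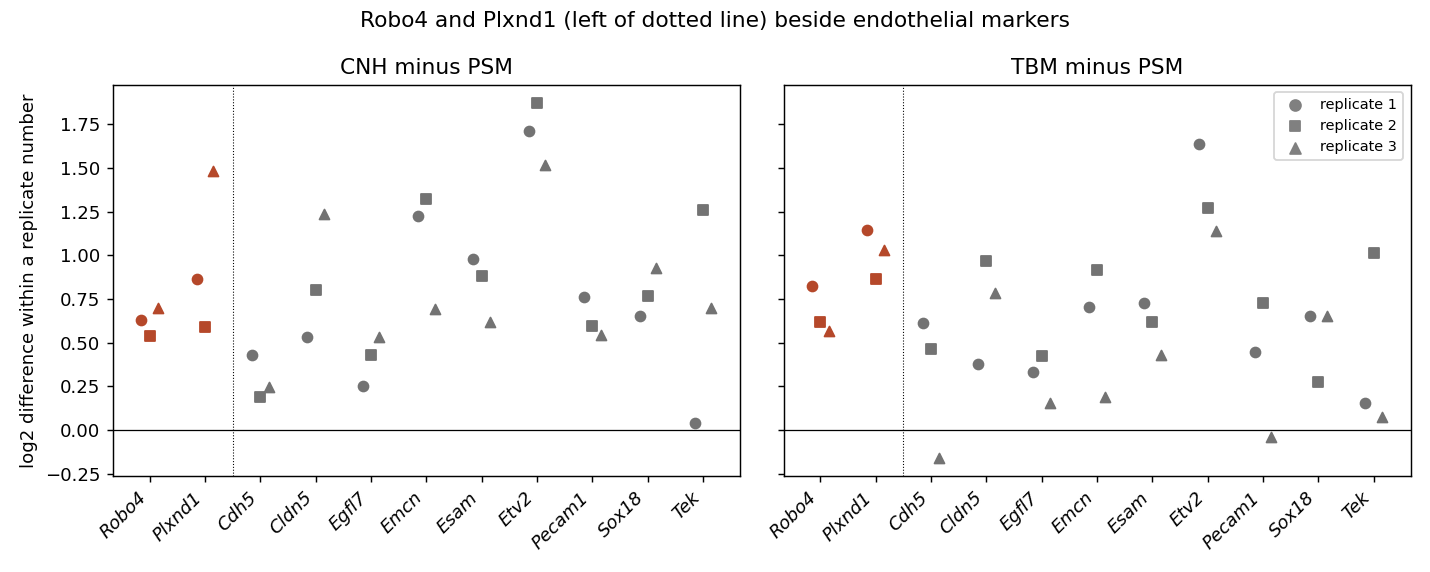
Log2 difference within each replicate number (vertical axes, marker shapes) of Robo4 and Plxnd1 and of the 9 tested endothelial markers (horizontal axes), for CNH minus PSM and TBM minus PSM. Robo4 and Plxnd1 are above 0 in all replicate numbers of both comparisons, and among the markers Etv2 is the highest in CNH minus PSM.

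Unc5b, a netrin receptor of the repulsive kind, had 6.50, 6.11 and 6.11 in CNH, 7.19, 6.65 and 6.16 in TBM and 6.25, 5.42 and 5.84 in PSM. TBM was the highest region within each replicate number, but the arrays overlapped. It was called between TBM and PSM at 0.83 ± 0.16 (SE, 1.78-fold, adjusted p = 0.00662 by limma). The call was lost on uncorrected signals (0.49) and at an offset of 50 (0.58), under the fold limit, and with no detection filter (adjusted p = 0.0528 by limma). It was also lost without the replicate block and with the deposited values. The difference was 0.40 between CNH and PSM (adjusted p = 0.124) and -0.43 between CNH and TBM (interval -0.79 to -0.06, adjusted p = 0.314 by limma). Unc5c was detected on 2 CNH arrays and on no other.

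The other receptors were not called in any comparison. Plxna2, a plexin of class 3 and class 6 semaphorins, had 7.94, 7.90 and 7.63 in CNH, 8.05, 8.08 and 8.16 in TBM and 8.25, 8.35 and 8.56 in PSM. The regions did not overlap, with CNH lowest and PSM highest, and the difference between CNH and PSM was -0.56 (adjusted p = 0.0145 by limma), under the fold limit. It passed that limit without CNH replicate 1 (-0.67), CNH replicate 2 (-0.61), PSM replicate 1 (-0.65) or PSM replicate 2 (-0.59). Neighbouring regions in this order differed by -0.27 (CNH and TBM) and -0.29 (TBM and PSM), neither called.

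Robo1, a Slit receptor, had 6.40, 6.34 and 8.27 in CNH, 6.67, 6.68 and 8.25 in TBM and 6.97, 7.06 and 8.34 in PSM. PSM was the highest region within each replicate number, though the regions overlapped through replicate 3. The difference between CNH and PSM was -0.45 (adjusted p = 0.0402 by limma), and -0.60 without CNH replicate 3 and -0.59 without PSM replicate 3, when it was called. It was also called without replicate 3 of every region (-0.64). These values come from ILMN_1244484, and the other Robo1 probes were detected on no array or on 1 CNH array.

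Nrp1, the neuropilin that class 3 semaphorins share with VEGF, had 6.69, 6.77 and 7.65 in CNH, 6.66, 6.80 and 6.53 in TBM and 7.25, 7.06 and 6.73 in PSM at its brightest probe. CNH replicate 3 was the highest of the 9, and the regions overlapped. Its 3 probes differed by 0.02 to 0.11 between CNH and PSM, by -0.51 to -0.35 between TBM and PSM and by 0.37 to 0.62 between CNH and TBM, with no call. Their SE of up to 0.24 was the widest of the set. One probe (ILMN_2669912) was called lower in TBM than in PSM without PSM replicate 3 (-0.74, adjusted p = 0.0414 by limma) and without replicate 3 of every region (-0.60, adjusted p = 0.0113 by limma).

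Neogenin (Neo1), a receptor of netrins and of repulsive guidance molecules, had 7.93, 7.92 and 7.35 in CNH, 7.89, 8.35 and 7.0 in TBM and 7.79, 8.08 and 7.09 in PSM at its brightest probe. The regions overlapped, and the differences of its 3 probes from PSM were -0.13 to 0.08 in CNH and 0.00 to 0.10 in TBM. Plxnb2 differed from PSM by -0.24 in CNH and 0.06 in TBM, without a call.

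Genes that carry guidance signals into the cell, or bind the same proteins, were counted from lists and read at the brightest probe. Of 27 semaphorin and plexin partners 13 were tested, and 2 were higher and 1 lower in CNH than in PSM, where 11.2% of all tested probes were called. Crmp1, an intracellular mediator of Sema3a signals, differed by 1.44 in CNH and 1.11 in TBM (adjusted p = 7.96e-05 and 0.000532 by limma). It was detected on 3, 3 and 2 arrays of CNH, TBM and PSM. As it passed the detection limit only through CNH and TBM, this direction was built into its selection. Fes, a tyrosine kinase that binds plexins, differed by 0.84 in CNH (adjusted p = 0.00432 by limma), and Dpysl5, of the same family as Crmp1, by -0.80 (adjusted p = 0.00159 by limma). Only Crmp1 of this list was called between TBM and PSM, where 9.42% of all tested probes were. Mical1, an actin-oxidising enzyme that binds plexins, was called between CNH and TBM, at -0.71 (adjusted p = 0.0424 by limma), where 1.01% of all tested probes were.

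Of 15 Slit and Robo partners 10 were tested, and 1 was called in both CNH and TBM relative to PSM (11.2% and 9.42% of all tested probes), Srgap3, a GTPase-activating protein that binds roundabouts. It had 6.11, 6.14 and 6.81 in CNH, 5.52, 5.82 and 6.39 in TBM and 4.88, 4.70 and 5.72 in PSM. Its CNH arrays all lay above those of the PSM, while TBM and PSM overlapped. Srgap3 was detected on 3, 3 and 1 arrays of CNH, TBM and PSM, so it passed the detection limit only through CNH and TBM. A difference of this direction was thus built into its selection. The differences were 1.26 in CNH and 0.81 in TBM (adjusted p = 6.74e-05 and 0.00138 by limma).

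Of 30 partners of netrins, Dcc, neogenin and Unc5 genes 17 were tested, and 1 was called in both (again beside 11.2% and 9.42%), Rgma, a membrane-anchored ligand of neogenin. It had 5.97, 5.95 and 5.62 in CNH, 5.60, 5.94 and 5.39 in TBM and 6.97, 6.83 and 6.33 in PSM. The PSM arrays lay above all others, and the differences were -0.86 in CNH and -1.07 in TBM (adjusted p = 0.000744 and 0.000240 by limma). Median differences of the lists between CNH and PSM were -0.08, 0.16 and -0.15 in the order given, beside -0.04 over all tested probes.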

How the data were processed

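Signals were analysed as deposited from 9 Illumina arrays of the chordoneural hinge, tailbud mesoderm and presomitic mesoderm (3 each). The deposited table without normalization holds a linear intensity per probe and array, and beside each a deposited detection p-value. For the second table, the authors transformed (VST) and normalized (RSN) the signals with lumi, which gives log2-like values, and used limma with terms for batch and replicate group. All sample columns were mapped to a title. The annotation gave 1 symbol to 34885 probes, several to 18 and none to 10378.

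With limma 3.58.1 (R 4.3.3), background was corrected by normexp from the detection p-values (offset 16), followed by quantile normalization and log2, which compresses differences of dim probes. The 12437 probes with a detection p below 0.01 on each of the 3 arrays of a region, in 1 or more regions, were fitted with region and replicate number (4 residual degrees of freedom), with Benjamini-Hochberg adjustment over all of them. The number came from the titles: deviations from region means correlated at 0.858 to 0.964 for arrays sharing a number. For numbers 1 and 2 they correlated at 0.863 to 0.893, and for number 3 with either at -0.930 to -0.895. A bound of a fold took, for each array where a probe was not detected, its own value or, where higher, the lowest value of any detected probe. The number of arrays limits the precision.

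Named genes were those with a called probe, the brightest tested gene of each family, genes whose probes differed in call and up to 4 called partners a list. Others were named after their values were seen. The brightest probe stands for a gene. Summed signals of marker lists are sums of normalized linear values at 1 probe a gene. Members and lists were chosen with earlier results of these data known. Alternatives were no replicate block, the deposited values, no background correction, an offset of 50, no detection filter, probes detected on all arrays, no fold limit, averaged replicate pairs, leaving out each array and leaving out replicate 3 of every region.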

Additional observations from a re-analysis of the deposited data

How the results depend on the processing

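Of the called guidance probes, all kept their sign in every alternative in which they were tested. Counts moved more. Between CNH and PSM, 9 probes were called, against 3 without the replicate block, 1 with the deposited values, 4 on uncorrected signals, 5 at an offset of 50 and 14 with no fold limit. Leaving out 1 array at a time gave 8 to 12, and leaving out replicate 3 of every region 8, among them 7 of the 9. Between TBM and PSM, 10 were called, against 2 without the block, 1 with the deposited values, 4 on uncorrected signals and 5 at an offset of 50, 8 to 10 with 1 array left out and 9, among them 8 of the 10, without replicate 3 of every region. Between CNH and TBM, leaving out 1 array gave 0 to 1, the 1 being Slit2 without PSM replicate 3, and all other alternatives gave 0. With the deposited values 8 of the 9 and 7 of the 10 still had an adjusted p under 0.05 in limma, so most fell under the fold limit on that compressed scale. All-probe counts went the same way, with 1393, 125 and 1172 probes called between CNH and PSM, CNH and TBM and TBM and PSM, against 351, 0 and 268 without the block 279, 15 and 242 with the deposited values, 746, 61 and 630 on uncorrected signals, 884, 84 and 749 at an offset of 50 and 2311, 131 and 1739 with no fold limit.

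Slit2 (ILMN_1253797) was called throughout, and Sema5a (ILMN_2604226) in all but the deposited values. Without the replicate block, the only other call that held was that of the second Slit2 probe in CNH relative to PSM. With the deposited values no other call held. Uncorrected signals and an offset of 50 each ended the calls of Sema3c, Sema4g, Sema6a, Unc5b, Plxnd1 (ILMN_2550095), Robo4 in CNH and the second Slit2 probe between TBM and PSM, and uncorrected signals also those of Robo4 in TBM and of Sema5a (ILMN_2604224) in CNH. Leaving out replicate 3 of every region ended those of Robo4 in CNH, Plxnd1 (ILMN_2550095) and Sema4g. Averaging replicates 1 and 2 ended those of Sema6a in CNH and of Plxnd1 (ILMN_2550095) in TBM. Averaging replicates 1 and 3 ended that of Plxnd1 (ILMN_2550095) in TBM, and averaging replicates 2 and 3 that of Sema4g in TBM. Signal over background limits probes near background. Of 29 small differences that were never called, 16 changed sign in some alternative.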

Other observations

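Replicate 3 shifted probes of the whole array in opposite directions, the guidance probes among them, also within a gene. It was above replicates 1 and 2 in every region for 13 of the 29 guidance probes (44.8%), near the 45.5% of all tested probes. It was below both in every region for 4 (13.8%), beside 31.2%. For Neo1, ILMN_2522345 had 7.33 in CNH, 7.01 in TBM and 7.23 in PSM on replicate 3 and 4.56 to 5.22 on the other arrays, while ILMN_2610156 had 7.35, 7.0 and 7.09 on replicate 3 and 7.79 to 8.35 on the others. Robo1 had 8.25 to 8.34 on replicate 3 and 6.34 to 7.06 on the others. Plxnb1, detected only on replicate 3, had deposited signals of 150.8 in CNH, 132.5 in TBM and 97.7 in PSM there, and 73.5 to 83.9 on the other arrays. The shifts were not equal in all regions: between CNH and PSM, Robo1 differed by -0.56, -0.72 and -0.07 in replicates 1, 2 and 3, and Plxnd1 (ILMN_1214608) by 0.87, 0.59 and 1.48.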
